A study of Mus musculus with 16 samples.

Results

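The genes described here copy DNA in S phase or prepare the cell for it. They are 49 genes for the origin recognition complex, the licensing factors and the MCM helicase, for the firing factors and the polymerases, and for the clamp, the deoxynucleotide enzymes, cyclin E, 2 E2F factors and a chromatin assembly complex. They were chosen by name: a member is a gene on that list. A gene was found by any non-control probe whose accession leads to the listed symbol. Where the accession gave no symbol, the probe's gene name had to be that symbol or an older synonym of it. All 49 had a probe, and all 49 were well above background on all 16 arrays, so none was lost to the filter on dim probes. They stand among 18403 genes that were tested. The list holds 76 probes, of which 71 were tested, and 19 of the genes had several. The rule uses no measured value, though the members were chosen with earlier results of these data known.

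Transcripts were measured on 1-colour Agilent arrays in CD8 T cells, which are cytotoxic lymphocytes, of female C57BL/6N mice aged 7 weeks. The CD8+ Thy1.2+ cells were divided by surface CD44 into a low fraction (naive) and a high fraction (memory phenotype), and each was kept in culture for 4 h. The 4 groups were naive stimulated, naive resting, memory stimulated and memory resting, with 4 arrays each. Stimulated cells received 10 ng/mL of PMA with 500 ng/mL of ionomycin, and resting cells had medium alone. PMA activates protein kinase C and ionomycin lets calcium into the cell, so the signal starts below the T cell receptor. Memory phenotype is defined here by CD44 and not by a known antigen. The sort and culture were carried out in 4 independent rounds, per the series' design text, and the labels do not say how many mice each round used.

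Before a chromosome is copied, the origin recognition complex, Cdc6 and Cdt1 load rings of the MCM2 to MCM7 helicase onto DNA in G1, a step called licensing. At the start of S phase the kinases Cdc7 and cyclin E with Cdk2 fire these origins, Cdc45 and the GINS proteins join the helicase, and polymerases follow it with the sliding clamp PCNA. Many of these genes are transcribed when E2F factors are released from the retinoblastoma family of repressors. Resting T cells sit in G0 outside the cycle, and an activated naive T cell needs many hours before it enters S phase.

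A stretch before the start of 4 member genes is shown because they span the outcomes described below. Orc1 rose most with stimulation, and Cdc6 and Tk1 were higher in memory cells. Mcm6 passed no test in the main fit, though it was called lower after stimulation with quantile scaling and with the authors' table. Capitals mark matches to the E2F letters TTTCCCGC, TTTGGCGC, TTTCGCGC and TTTGCCGC, searched on both strands with overlaps kept, as were the other motifs below. The stretches come from RefSeq (GRCm38.p6), read 5′ to 3′ on the gene's strand: chr4:108579304-108579453 (plus strand), chr1:128359706-128359855 (minus), chr11:98908001-98908150 (plus) and chr11:117826015-117826164 (minus).
Orc1: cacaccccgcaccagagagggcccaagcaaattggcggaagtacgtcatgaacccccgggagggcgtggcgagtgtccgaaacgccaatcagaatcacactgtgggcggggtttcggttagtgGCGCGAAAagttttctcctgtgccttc
Mcm6: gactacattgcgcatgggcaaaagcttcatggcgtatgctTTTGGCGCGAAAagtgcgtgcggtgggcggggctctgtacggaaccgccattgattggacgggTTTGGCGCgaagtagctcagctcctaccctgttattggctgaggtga
Cdc6: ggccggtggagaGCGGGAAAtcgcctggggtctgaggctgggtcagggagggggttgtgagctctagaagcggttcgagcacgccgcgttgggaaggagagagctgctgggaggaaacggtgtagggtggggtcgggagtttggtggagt
Tk1: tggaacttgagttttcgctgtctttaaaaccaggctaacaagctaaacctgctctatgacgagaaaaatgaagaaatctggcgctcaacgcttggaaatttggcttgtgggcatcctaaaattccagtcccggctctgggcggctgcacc
Mcm6 has 3 matches, at -110, -106 and -47 relative to the start, the first pair overlapping. Orc1 has 1 match, at -27, Cdc6 has 1, at -138, and Tk1 has none in this stretch.

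Over windows from 250 bases before to 50 bases after each annotated start, 14 of 51 windows of the members (27.5%) held an E2F match, against 2.26% of all 32851 windows and 3.6% of the 14282 windows of tested genes. Of the 49 genes, 41 had a window in the RefSeq table, and 14 of these 41 had a match. The share was 34.3% for windows of 39 other replication genes and 6.25% for windows of 18 G2 and mitosis genes. CCAAT was found in 52.9% of member windows, against 37.4% of all windows and 37.5% of windows of tested genes. TTTGAA or TTTAAA, the letters of the cell cycle homology region that marks many mitotic genes, was in 23.5% of member windows, against 27.6% of all windows, 21.0% of windows of tested genes and 87.5% of those of G2 and mitosis genes. A match describes letters only. Among the 14 genes with an E2F match, 4 were higher and 6 lower after stimulation in naive cells, and among the 27 without one, 9 were higher and 12 lower. In memory cells, 4 of the 14 and 5 of the 27 were higher than in naive cells at rest, and 3 of the 14 and 8 of the 27 after stimulation.

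Between arrays of 1 group, Pearson's r across genes was 0.9784 to 0.9953, and the share of spots well above background was 59.3% to 66.5%. The 4 arrays of a group shared a slide that held no other group, so slide and group cannot be told apart in any comparison below. Arrays 2 and 3 lay closer to each other than to the rest in every group. In naive resting cells they differed by a standard deviation of 0.089 on the log2 scale, which is 1.07 times the spread between spots of 1 probe on 1 array. They were therefore taken as no further apart than measurement noise and counted as 1 sample, which leaves 3 samples from the 4 naive resting arrays. This departs from the 4 independent rounds of the design text and from the planned count of each array. In the other groups each array was counted. Arrays 2 and 3 of the naive stimulated, memory resting and memory stimulated groups differed by 1.29, 2.13 and 2.82 times the spot spread, and the other 20 pairs by 2.95 to 5.91 times. Results that end when arrays 2 and 3 are counted as 1 in all groups are named where they occur. Nothing in the labels says which replicates came from separate mice, so p-values measure the spread between these samples, which may be technical in part. The 10 tested T cell markers, Cd8a, Cd8b1 and Cd3e among them, had a mean level of 3.88 to 5.08 on all arrays, and each was well above background on at least 1 array of every group.

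The first question is what 4 h of PMA and ionomycin did to these genes. More members fell than rose in both cell types. In memory cells, with the main scaling, the shares that rose and fell, 24.5% and 38.8%, lie near those of all genes, 29.9% and 40.7%. With quantile scaling and with the authors' table more members fell there, as given below. Orc1, Pold2, Pcna, Ccne2 and Orc2, which serve origin recognition, lagging strand synthesis, the sliding clamp and entry into S phase, rose the most, with log2 changes of 1.51 to 2.38 for Orc1, Pold2 and Pcna. E2f2, Pole2, Rpa1, Orc5, Gmnn and Lig1 were among the largest falls, with changes of -3.66 to -1.68 for E2f2, Pole2 and Rpa1. No member was called in opposite directions in the 2 cell types, and 754 of all 18403 genes tested were.

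Levels below are on the log2 scale with the 75th percentile of the same array set to 0, and a step of 1 is a doubling. They compare a gene between groups, not genes with each other. A change is stimulated minus resting with its standard error (SE) from limma, and it passed where the Benjamini-Hochberg adjusted p over all genes was under 0.05. In naive cells 14 of 49 members rose and 22 fell, with a median of -0.33. Over all genes tested, 34.6% rose and 31.0% fell, with a median of 0.08. With arrays 2 and 3 counted as 1 in both naive groups, 12 members rose and 18 fell, against 5939 and 5469 of all genes. In memory cells 12 members rose and 19 fell, with a median of -0.29, while 29.9% of all genes rose and 40.7% fell, with a median of -0.21. With the authors' own normalized table the memory split was 10 up and 27 down, against 5528 and 6993 of 18374 genes. With quantile scaling it was 12 and 25, against 5685 and 6946 of 18403 genes. Of the members, 11 rose in both cell types, which is 78.6% of the risers in naive and 91.7% of those in memory cells, against 71.0% and 82.1% over all genes. Another 15 fell in both, 68.2% and 78.9% of those that fell, against 85.6% and 65.1% over all genes. The changes correlated across the 49 genes at r = 0.94, which is a description, since genes are not independent and the groups may share sort rounds. The stimulated and resting arrays did not overlap for 33 members in naive cells and for 28 in memory cells, and for 60.2% and 65.2% of all genes tested.

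**Figure D1:**
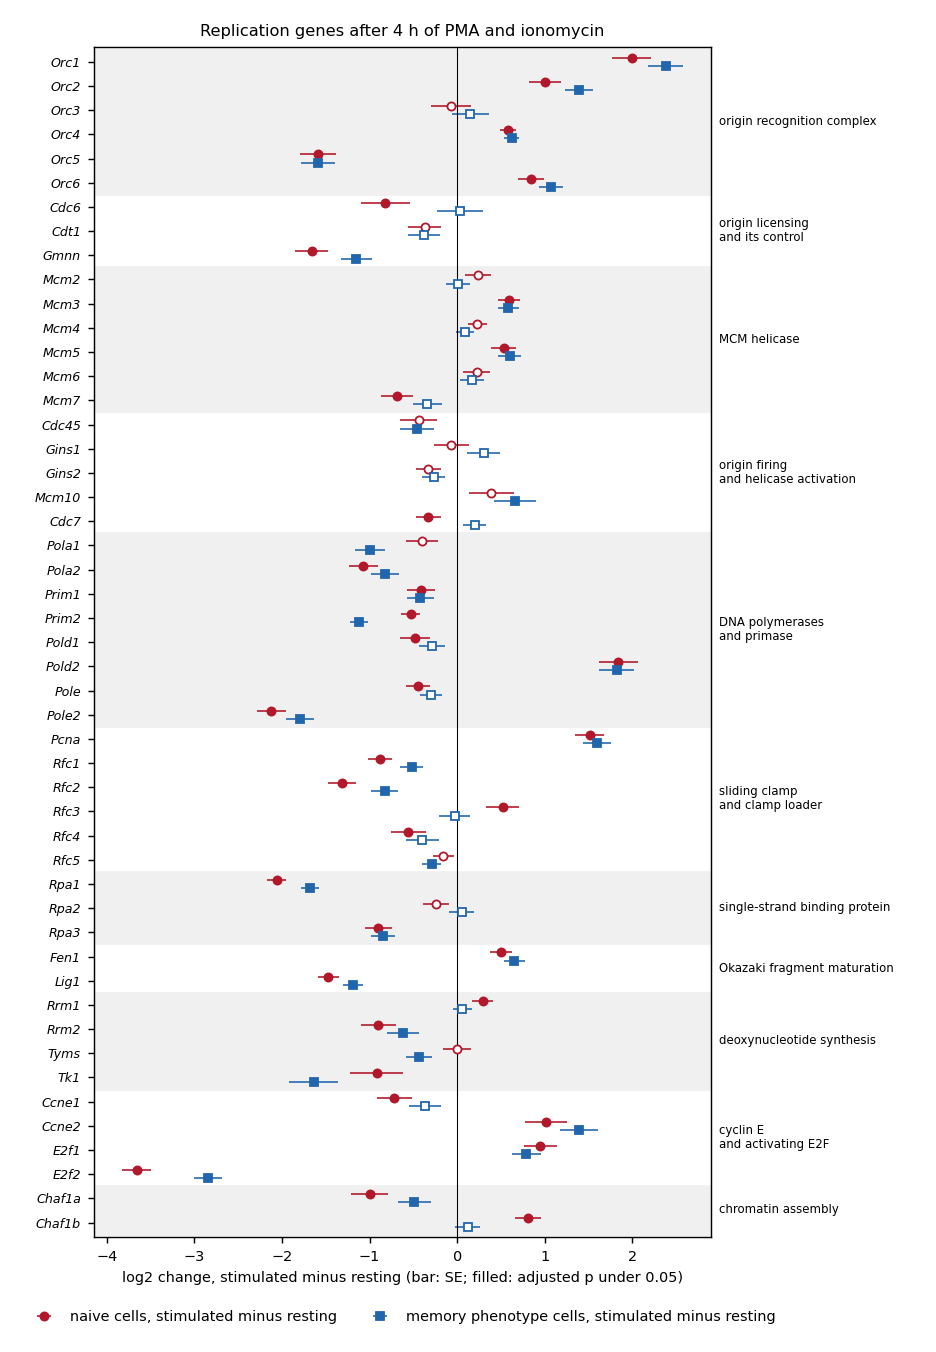
Log2 change (stimulated minus resting, x axis) of the 49 genes, ordered by role down the page, for naive cells (circles) and memory phenotype cells (squares). Bars are the SE from limma and filled symbols have an adjusted p under 0.05. Risers such as Orc1 and Pold2 and fallers such as E2f2 and Pole2 lie on the same side in both cell types, and Mcm2 to Mcm7 lie between -0.69 and 0.60. Another scaling turned the sign of Mcm3 in memory cells and of Mcm4 and Mcm6 in both.

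The origin recognition complex marks origins and starts the loading of the helicase. Of its 6 genes, 4 rose and 1 fell in each cell type. Orc1 (mm7 chromosome 4, 107988606 to 107989513) encodes the subunit whose level cycles with the cell cycle in many cells. Naive cells had Orc1 at -2.94, -2.79, -2.44 and -2.78 after stimulation, against -5.05, -4.19, -4.46 and -4.82 at rest. Memory cells had Orc1 at -1.44, -1.62, -1.83 and -1.64 after stimulation, against -3.54, -4.40, -4.28 and -3.84 at rest. Orc1 was higher on all stimulated arrays than on the resting ones in both cell types, with no overlap. Orc1 rose by 1.99 ± 0.22 (adjusted p = 1.53e-06) in naive cells and by 2.38 ± 0.20 (adjusted p = 8.73e-08) in memory cells. These are 3.98-fold and 5.21-fold. Orc2 is a core subunit. Orc2 was at 2.64, 2.97, 3.0 and 2.79 on the naive stimulated arrays, against 1.53, 2.00, 2.01 and 2.00 on the naive resting arrays. On memory arrays, Orc2 was at 2.80, 3.0, 3.19 and 2.71 with stimulation, against 1.17, 1.6, 1.56 and 1.78 without it. No stimulated Orc2 value overlapped the resting values, and all were higher in both cell types. Orc2 rose by 1.0 ± 0.18 (adjusted p = 0.000155) in naive cells and by 1.39 ± 0.16 (adjusted p = 2.65e-06) in memory cells. Orc5 (mm7 chromosome 5, 21525296 to 21525355), an ATP-binding subunit, was the member of the complex that fell. The naive Orc5 signal was -1.77, -2.52, -2.45 and -2.39 with stimulation, against -0.75, -0.96, -0.97 and -0.37 in medium. The memory Orc5 signal was -1.86, -2.44, -2.47 and -2.51 with stimulation, against -0.84, -0.72, -0.67 and -0.69 in medium. For Orc5, every stimulated array was lower than any resting array of the same cell type. Orc5 fell by 1.59 ± 0.21 (adjusted p = 8.73e-06) in naive cells and by 1.59 ± 0.19 (adjusted p = 3.43e-06) in memory cells. Orc6, the smallest subunit, rose by 0.84 ± 0.15 in naive and 1.07 ± 0.14 in memory cells, and Orc4 by 0.58 ± 0.09 and 0.62 ± 0.09. Orc3 did not pass (-0.07 ± 0.23 and 0.15 ± 0.21). Of its 4 other tested probes, 3 did not pass. The dimmest was at least 1.56-fold lower in memory stimulated cells, where no array was well above background (mean -5.55, against -4.86 at rest, adjusted p = 0.00883). In naive cells this probe fell as well, by 0.67 ± 0.23 (adjusted p = 0.0188), and was well above background on 1 stimulated and 3 resting arrays. Here and below, such a bound sets the brighter group against the higher of the dim signal and the lowest signal well above background on each array. A second probe of Orc4 did not pass in naive cells (0.21 ± 0.15, adjusted p = 0.22).

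Licensing needs Cdc6 and Cdt1, and geminin, the product of Gmnn, blocks Cdt1 once S phase has begun. Gmnn was lower after stimulation and Cdt1 passed in neither cell type. Naive cells had Gmnn at 1.41, 2.13, 2.05 and 2.15 after stimulation, against 3.23, 3.84, 3.76 and 3.76 at rest. Memory cells had Gmnn at 2.59, 2.57, 2.68 and 2.42 after stimulation, against 3.48, 3.81, 3.68 and 3.90 at rest. Gmnn was lower on all stimulated arrays than on the resting ones in both cell types, with no overlap. Gmnn fell by 1.66 ± 0.19 (adjusted p = 2.83e-06) in naive cells and by 1.15 ± 0.18 (adjusted p = 4.47e-05) in memory cells. Cdt1 is the loader that geminin holds. Cdt1 was at 4.01, 4.68, 4.63 and 4.47 on the naive stimulated arrays, against 4.78, 5.05, 4.99 and 4.65 on the naive resting arrays. On memory arrays, Cdt1 was at 3.97, 4.43, 4.63 and 4.28 with stimulation, against 4.39, 4.86, 4.76 and 4.78 without it. For Cdt1, stimulated and resting arrays overlapped in both cell types. Cdt1 passed in neither cell type, with changes of -0.37 ± 0.19 in naive cells (adjusted p = 0.107) and -0.38 ± 0.18 in memory cells (adjusted p = 0.0725). Cdc6 brings the helicase to the origin complex. The naive Cdc6 signal was -4.32, -4.94, -4.56 and -5.31 with stimulation, against -4.15, -3.84, -3.79 and -3.92 in medium. The memory Cdc6 signal was -2.56, -1.83, -2.91 and -3.06 with stimulation, against -2.29, -2.87, -2.65 and -2.68 in medium. For Cdc6, all stimulated naive arrays were lower than the resting ones, whereas the arrays of memory cells overlapped. Cdc6 fell by 0.82 ± 0.28 (adjusted p = 0.0182) in naive cells, and in memory cells its change of 0.03 ± 0.26 did not pass (adjusted p = 0.918). The naive call ended for Cdc6 without naive stimulated array 4 (-0.65, adjusted p = 0.057). A second, dimmer Cdc6 probe was well above background on 0 of 4 naive stimulated arrays and at least 1.55-fold lower there (mean -7.29, against -4.96 at rest, adjusted p = 5.51e-05). In memory cells it fell by 1.75 ± 0.34, with 1 of 4 stimulated arrays well above background, so the probes disagree there. With the mean of both probes the Cdc6 change in memory cells was -0.86, a fall that passed (adjusted p = 0.00716).

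The MCM2 to MCM7 proteins form the ring that unwinds DNA. Of these 6 genes, 2 rose and 1 fell in naive cells and 2 rose in memory cells, and another scaling turned the sign of Mcm3 in memory cells and of Mcm4 and Mcm6 in both. Naive cells had Mcm3 at 4.60, 4.80, 4.84 and 4.67 after stimulation, against 3.92, 4.25, 4.18 and 4.27 at rest. Memory cells had Mcm3 at 4.70, 4.73, 4.90 and 4.63 after stimulation, against 4.06, 4.16, 4.06 and 4.35 at rest. Mcm3 was higher on all stimulated arrays than on the resting ones in both cell types, with no overlap. Mcm3 rose by 0.59 ± 0.13 (adjusted p = 0.000755) in naive cells and by 0.58 ± 0.12 (adjusted p = 0.000437) in memory cells. With quantile scaling the Mcm3 changes were 0.16 in naive cells and -0.02 in memory cells, and 0.10 and -0.08 with the authors' table, so the Mcm3 calls ended in both cell types under both. A second Mcm3 probe, well above background on all arrays, did not pass in naive cells (0.06 ± 0.15, adjusted p = 0.732) and rose by 0.59 ± 0.14 in memory cells. Mcm5 sits beside Mcm2 in the ring. Mcm5 was at 2.30, 2.66, 2.77 and 2.24 on the naive stimulated arrays, against 1.95, 1.96, 2.01 and 1.95 on the naive resting arrays. On memory arrays, Mcm5 was at 2.71, 2.80, 2.96 and 2.58 with stimulation, against 2.17, 2.10, 2.05 and 2.31 without it. No stimulated Mcm5 value overlapped the resting values, and all were higher in both cell types. Mcm5 rose by 0.53 ± 0.14 (adjusted p = 0.00465) in naive cells and by 0.60 ± 0.13 (adjusted p = 0.000979) in memory cells. With the authors' table the memory change of Mcm5 was 0.24 (adjusted p = 0.0698). Mcm7 forms the core of the ring with Mcm4 and Mcm6. The naive Mcm7 signal was 3.06, 3.51, 3.49 and 3.22 with stimulation, against 3.76, 4.20, 4.22 and 4.05 in medium. The memory Mcm7 signal was 3.34, 3.65, 3.92 and 3.41 with stimulation, against 3.61, 4.00, 3.98 and 4.09 in medium. For Mcm7, all stimulated naive arrays were lower than the resting ones, whereas the arrays of memory cells overlapped. Mcm7 fell by 0.69 ± 0.18 (adjusted p = 0.00366) in naive cells, and in memory cells its change of -0.34 ± 0.17 did not pass (adjusted p = 0.0788). Mcm2 also binds histones. Naive cells had Mcm2 at 2.45, 2.17, 2.19 and 1.98 after stimulation, against 2.07, 2.00, 1.98 and 1.81 at rest. Memory cells had Mcm2 at 2.45, 2.16, 2.24 and 1.85 after stimulation, against 2.12, 2.12, 2.23 and 2.18 at rest. For Mcm2, stimulated and resting arrays overlapped in both cell types. Mcm2 passed in neither cell type, with changes of 0.24 ± 0.15 in naive cells (adjusted p = 0.166) and 0.01 ± 0.14 in memory cells (adjusted p = 0.942). Mcm4 and Mcm6 did not pass in either cell type, with 0.23 ± 0.11 and 0.09 ± 0.10 for Mcm4 and 0.22 ± 0.15 and 0.17 ± 0.14 for Mcm6. Both turned negative with the authors' table (Mcm4 -0.28 and -0.62, Mcm6 -0.38 and -0.51). With quantile scaling Mcm4 was at -0.52 in memory cells and Mcm6 at -0.30 and -0.43. All of these falls passed there, unlike the changes in the main fit, so no direction is given for either gene.

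Origin firing joins Cdc45 and the 4-protein GINS complex to the helicase, with Mcm10 as a cofactor and Cdc7 as the kinase that triggers it. Of these 5 genes, 1 fell in naive cells, and 1 rose and 1 fell in memory cells. Mcm10 was at -1.09, -0.85, -1.42 and -1.64 on the naive stimulated arrays, against -1.23, -1.99, -1.96 and -1.71 on the naive resting arrays. On memory arrays, Mcm10 was at 1.42, 0.65, 0.84 and 0.61 with stimulation, against 0.71, -0.02, 0.09 and 0.10 without it. For Mcm10, stimulated and resting arrays overlapped in both cell types. Mcm10 rose by 0.66 ± 0.24 (adjusted p = 0.0226) in memory cells, and in naive cells its change of 0.39 ± 0.26 did not pass (adjusted p = 0.199). The naive Cdc45 signal was -3.76, -3.30, -3.01 and -3.17 with stimulation, against -3.39, -2.79, -2.57 and -2.54 in medium. The memory Cdc45 signal was -2.14, -2.50, -2.53 and -2.44 with stimulation, against -1.81, -1.96, -1.91 and -2.08 in medium. For Cdc45, stimulated and resting arrays overlapped in naive cells, whereas in memory cells all stimulated arrays were lower. Cdc45 fell by 0.46 ± 0.19 (adjusted p = 0.0453) in memory cells, and in naive cells its change of -0.44 ± 0.21 did not pass (adjusted p = 0.0755). Naive cells had Cdc7 at -0.12, -0.27, -0.09 and -0.10 after stimulation, against -0.11, 0.21, 0.14 and 0.50 at rest. Memory cells had Cdc7 at -0.07, 0.06, 0.15 and 0.00 after stimulation, against -0.29, -0.02, -0.07 and -0.29 at rest. For Cdc7, stimulated and resting arrays overlapped in both cell types. Cdc7 fell by 0.33 ± 0.14 (adjusted p = 0.0469) in naive cells, and in memory cells its change of 0.20 ± 0.13 did not pass (adjusted p = 0.168). The Cdc7 changes had opposite signs, and the difference between them, 0.54 ± 0.19 (adjusted p = 0.0671), did not pass. Gins1 (-0.07 ± 0.20 and 0.30 ± 0.19) and Gins2 (-0.33 ± 0.14 and -0.27 ± 0.13) did not pass. A second Gins1 probe, well above background on all arrays, rose by 0.54 ± 0.22 in memory cells (adjusted p = 0.0392). Its stimulated and resting arrays overlapped there. The calls here leaned on single arrays. They ended for Mcm10 without memory stimulated array 1 (0.48, adjusted p = 0.0799) or memory resting array 2 (0.58, adjusted p = 0.0634) or memory resting array 3 (0.62, adjusted p = 0.0531) or memory resting array 4 (0.62, adjusted p = 0.0511). They also ended for Cdc45 without any of 9 arrays (adjusted p up to 0.101, at -0.41 without memory resting array 1) and for Cdc7 without any of 13 arrays (adjusted p up to 0.257, at -0.18 without naive resting array 4). The Cdc45 and Mcm10 calls in memory cells ended too when arrays 2 and 3 were counted as 1 in all groups (adjusted p = 0.147 and 0.0642), as did the naive Cdc7 call (adjusted p = 0.11).

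Among DNA polymerase and primase genes, Pold2 rose while most others fell. In naive cells 6 of 8 fell and in memory cells 5 of 8. Pold2 (mm7 chromosome 11, 5825086 to 5825145) encodes the second subunit of polymerase delta, which copies the lagging strand. Pold2 was at 2.10, 1.36, 1.56 and 1.31 on the naive stimulated arrays, against 0.04, -0.51, -0.36 and -0.37 on the naive resting arrays. On memory arrays, Pold2 was at 2.23, 1.69, 1.58 and 1.68 with stimulation, against 0.28, -0.26, -0.12 and 0.01 without it. No stimulated Pold2 value overlapped the resting values, and all were higher in both cell types. Pold2 rose by 1.84 ± 0.22 (adjusted p = 3.21e-06) in naive cells and by 1.82 ± 0.20 (adjusted p = 1.42e-06) in memory cells. Pole2 (mm7 chromosome 12, 67147975 to 67149374) encodes the second subunit of polymerase epsilon, which copies the leading strand. The naive Pole2 signal was -1.80, -1.87, -1.65 and -1.25 with stimulation, against 0.70, 0.56, 0.57 and 0.16 in medium. The memory Pole2 signal was -1.0, -1.36, -1.47 and -1.42 with stimulation, against 0.55, 0.53, 0.53 and 0.34 in medium. For Pole2, every stimulated array was lower than any resting array of the same cell type. Pole2 fell by 2.12 ± 0.17 (adjusted p = 7.61e-08) in naive cells and by 1.80 ± 0.16 (adjusted p = 1.54e-07) in memory cells. Pola1 is the catalytic subunit of polymerase alpha, which starts each new strand from an RNA primer made by primase. Naive cells had Pola1 at -0.16, -0.53, -0.45 and -0.88 after stimulation, against -0.20, 0.08, 0.16 and -0.22 at rest. Memory cells had Pola1 at -0.16, -0.39, -0.32 and -0.33 after stimulation, against 0.85, 0.77, 0.91 and 0.26 at rest. For Pola1, stimulated and resting arrays overlapped in naive cells, whereas in memory cells all stimulated arrays were lower. Pola1 fell by 1.0 ± 0.17 (adjusted p = 0.00011) in memory cells, and in naive cells its change of -0.40 ± 0.18 did not pass (adjusted p = 0.0663). Prim1 is the catalytic subunit of primase. Prim1 was at 2.08, 2.19, 2.08 and 2.33 on the naive stimulated arrays, against 2.29, 2.58, 2.56 and 2.87 on the naive resting arrays. On memory arrays, Prim1 was at 1.86, 1.97, 2.17 and 1.76 with stimulation, against 2.06, 2.55, 2.39 and 2.43 without it. For Prim1, stimulated and resting arrays overlapped in both cell types. Prim1 fell by 0.41 ± 0.16 (adjusted p = 0.0364) in naive cells and by 0.42 ± 0.15 (adjusted p = 0.0216) in memory cells.

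Pola2 and Prim2 also fell in both cell types. Pola2, the regulatory subunit of polymerase alpha, fell by 1.07 ± 0.17 in naive and 0.83 ± 0.16 in memory cells. Prim2, the large primase subunit, fell by 0.53 ± 0.11 and 1.12 ± 0.10. A dim second probe of Prim2 rose in naive cells (1.20 ± 0.50), with 3 stimulated arrays and 1 resting array well above background, and with the mean of both probes the naive change was 0.34. Pold1 and Pole, the catalytic subunits of delta and epsilon, fell in naive cells by 0.48 ± 0.17 and 0.45 ± 0.14 and did not pass in memory cells (-0.29 ± 0.15 and -0.30 ± 0.13). Naive calls ended for Pole without naive resting array 4 (-0.34, adjusted p = 0.0625) and for Pold1 without any of 5 arrays (adjusted p up to 0.0644, at -0.43 without naive resting array 1). For Prim1 they ended without naive stimulated array 1, 2 or 3 or without naive resting array 4, with an adjusted p of up to 0.185, and in memory cells without memory stimulated array 1 or 4 or memory resting array 2, with up to 0.0687. Counting arrays 2 and 3 as 1 in all groups ended the calls of Pold1 (adjusted p = 0.0787) and Prim1 (0.0831) in naive cells and of Prim1 in memory cells (0.0639).

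PCNA is the clamp that holds polymerases on DNA, and replication factor C, encoded by Rfc1 to Rfc5, loads it. Pcna (mm7 chromosome 2, 131990537 to 131990674) rose in both cell types while of the 5 loader genes 1 rose and 3 fell in naive cells and 3 fell in memory cells. The naive Pcna signal was 6.20, 6.72, 6.68 and 6.56 with stimulation, against 4.71, 5.25, 5.24 and 5.13 in medium. The memory Pcna signal was 6.29, 6.60, 6.69 and 6.49 with stimulation, against 4.70, 4.88, 4.92 and 5.15 in medium. For Pcna, every stimulated array was higher than any resting array of the same cell type. Pcna rose by 1.51 ± 0.17 (adjusted p = 2.06e-06) in naive cells and by 1.6 ± 0.16 (adjusted p = 4.42e-07) in memory cells. The Pcna changes are 2.86-fold and 3.03-fold. Rfc2 and Rfc4 encode small subunits of the loader. Naive cells had Rfc2 at 3.0, 2.72, 2.52 and 2.99 after stimulation, against 4.20, 3.93, 3.88 and 4.27 at rest. Memory cells had Rfc2 at 3.31, 2.98, 3.31 and 2.95 after stimulation, against 3.89, 4.01, 3.80 and 4.17 at rest. Rfc2 was lower on all stimulated arrays than on the resting ones in both cell types, with no overlap. Rfc2 fell by 1.32 ± 0.16 (adjusted p = 4.43e-06) in naive cells and by 0.83 ± 0.15 (adjusted p = 0.000162) in memory cells. Rfc4 was at 1.20, 0.47, 0.38 and 0.90 on the naive stimulated arrays, against 1.52, 1.17, 1.07 and 1.25 on the naive resting arrays. On memory arrays, Rfc4 was at 1.71, 1.16, 1.31 and 1.12 with stimulation, against 1.90, 1.56, 1.73 and 1.70 without it. For Rfc4, stimulated and resting arrays overlapped in both cell types. Rfc4 fell by 0.56 ± 0.20 (adjusted p = 0.0242) in naive cells, and in memory cells its change of -0.40 ± 0.19 did not pass (adjusted p = 0.0671). Rfc1, the large subunit, fell by 0.88 ± 0.14 in naive and 0.52 ± 0.13 in memory cells. Rfc3 rose by 0.52 ± 0.19 in naive cells, and its memory change of -0.03 ± 0.18 did not pass. Rfc5 fell in memory cells by 0.29 ± 0.11, and its naive change of -0.16 ± 0.12 did not pass. The naive calls ended for Rfc3 without naive resting array 1 (0.27, adjusted p = 0.187) or naive stimulated array 2 (0.47, adjusted p = 0.0722) or naive stimulated array 3 (0.42, adjusted p = 0.0869), and for Rfc4 without naive resting array 1 (-0.45, adjusted p = 0.0988) or naive stimulated array 2 (-0.47, adjusted p = 0.0706) or naive stimulated array 3 (-0.44, adjusted p = 0.0759). The memory call ended for Rfc5 without any of 5 arrays (adjusted p up to 0.0949, at -0.24 without memory resting array 2). All 3 ended when arrays 2 and 3 were counted as 1 in all groups (adjusted p = 0.104 for Rfc3, 0.0966 for Rfc4 and 0.123 for Rfc5).

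Replication protein A coats single-stranded DNA at the fork, with a large (Rpa1), a middle (Rpa2) and a small subunit (Rpa3). Rpa1 and Rpa3 fell in both cell types, and Rpa2 passed in neither. The naive Rpa1 signal was 0.93, 0.88, 0.86 and 0.95 with stimulation, against 3.1, 2.88, 2.80 and 2.94 in medium. The memory Rpa1 signal was 1.23, 1.08, 1.25 and 0.99 with stimulation, against 2.74, 2.80, 2.83 and 2.90 in medium. For Rpa1, every stimulated array was lower than any resting array of the same cell type. Rpa1 fell by 2.06 ± 0.11 (adjusted p = 7e-10) in naive cells and by 1.68 ± 0.10 (adjusted p = 1.86e-09) in memory cells. Naive cells had Rpa3 at 0.26, 0.50, 0.56 and 0.70 after stimulation, against 1.20, 1.42, 1.30 and 1.66 at rest. Memory cells had Rpa3 at 0.48, 0.85, 0.75 and 0.50 after stimulation, against 1.31, 1.55, 1.46 and 1.64 at rest. Rpa3 was lower on all stimulated arrays than on the resting ones in both cell types, with no overlap. Rpa3 fell by 0.90 ± 0.15 (adjusted p = 0.000101) in naive cells and by 0.85 ± 0.14 (adjusted p = 7.68e-05) in memory cells. Rpa2 was at 1.94, 2.36, 2.40 and 2.15 on the naive stimulated arrays, against 2.21, 2.51, 2.48 and 2.65 on the naive resting arrays. On memory arrays, Rpa2 was at 2.26, 2.41, 2.58 and 2.26 with stimulation, against 2.12, 2.34, 2.29 and 2.56 without it. For Rpa2, stimulated and resting arrays overlapped in both cell types. Rpa2 passed in neither cell type, with changes of -0.24 ± 0.15 in naive cells (adjusted p = 0.193) and 0.05 ± 0.14 in memory cells (adjusted p = 0.775). The memory change of Rpa2 was -0.28 (adjusted p = 0.0374) with the authors' table. Okazaki fragments, the short pieces of the lagging strand, are trimmed by the flap nuclease Fen1 and sealed by DNA ligase 1 (Lig1). These partners moved in opposite directions in both cell types. The naive Fen1 signal was 1.54, 1.45, 1.59 and 1.19 with stimulation, against 0.89, 1.04, 1.09 and 0.88 in medium. The memory Fen1 signal was 1.83, 1.72, 1.58 and 1.45 with stimulation, against 1.09, 0.93, 0.96 and 1.01 in medium. For Fen1, every stimulated array was higher than any resting array of the same cell type. Fen1 rose by 0.50 ± 0.13 (adjusted p = 0.00305) in naive cells and by 0.65 ± 0.12 (adjusted p = 0.000189) in memory cells. Naive cells had Lig1 at 1.22, 1.52, 1.49 and 1.54 after stimulation, against 2.81, 2.86, 2.76 and 3.11 at rest. Memory cells had Lig1 at 1.77, 1.67, 1.83 and 1.61 after stimulation, against 2.89, 2.87, 2.85 and 3.04 at rest. Lig1 was lower on all stimulated arrays than on the resting ones in both cell types, with no overlap. Lig1 fell by 1.47 ± 0.12 (adjusted p = 8.76e-08) in naive cells and by 1.19 ± 0.11 (adjusted p = 2.83e-07) in memory cells.

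Deoxynucleotides come from ribonucleotide reductase (Rrm1 and Rrm2), thymidylate synthase (Tyms) and thymidine kinase 1 (Tk1). By limma 0 of the 4 rose in memory cells, also at an unadjusted p under 0.05. Tk1 (mm7 chromosome 11, 117924836 to 117924895) salvages thymidine. Tk1 was at -4.33, -4.12, -4.01 and -4.08 on the naive stimulated arrays, against -2.44, -3.61, -3.44 and -3.68 on the naive resting arrays. On memory arrays, Tk1 was at -2.19, -3.15, -2.78 and -3.07 with stimulation, against -0.59, -1.40, -1.11 and -1.53 without it. No stimulated Tk1 value overlapped the resting values, and all were lower in both cell types. Tk1 fell by 0.92 ± 0.30 (adjusted p = 0.0161) in naive cells and by 1.64 ± 0.28 (adjusted p = 0.000123) in memory cells. The naive call ended for Tk1 without naive resting array 1 (-0.53, adjusted p = 0.109). Rrm1 is the large subunit of the reductase. The naive Rrm1 signal was 1.43, 1.53, 1.51 and 1.33 with stimulation, against 1.15, 1.18, 1.12 and 1.18 in medium. The memory Rrm1 signal was 1.70, 1.52, 1.75 and 1.35 with stimulation, against 1.57, 1.48, 1.42 and 1.59 in medium. For Rrm1, all stimulated naive arrays were higher than the resting ones, whereas the arrays of memory cells overlapped. Rrm1 rose by 0.29 ± 0.12 (adjusted p = 0.0394) in naive cells, and in memory cells its change of 0.06 ± 0.11 did not pass (adjusted p = 0.611). That call ended for Rrm1 without any of 7 arrays (adjusted p up to 0.0944, at 0.26 without naive stimulated array 2). Rrm2, the small subunit that limits the enzyme outside S phase, fell by 0.90 ± 0.20 in naive and 0.62 ± 0.18 in memory cells. Tyms fell by 0.44 ± 0.15 in memory cells, and its naive change of 0.00 ± 0.16 did not pass. A dim second Tyms probe did not pass in memory cells (-0.03 ± 0.28). The memory call ended for Tyms without memory stimulated array 4 (-0.37, adjusted p = 0.0521). The calls of Rrm1 in naive cells and Tyms in memory cells ended as well when arrays 2 and 3 were counted as 1 in all groups (adjusted p = 0.115 and 0.0563).

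Cyclin E drives Cdk2 at the entry into S phase, and E2F1 and E2F2 switch on genes of this list. The pairs parted: Ccne2 and E2f1 rose, and E2f2 and, in naive cells, Ccne1 fell. Naive cells had Ccne2 at -1.99, -1.94, -1.83 and -1.21 after stimulation, against -3.35, -2.74, -2.69 and -2.19 at rest. Memory cells had Ccne2 at -1.90, -1.77, -1.84 and -1.59 after stimulation, against -2.93, -3.39, -3.13 and -3.21 at rest. Ccne2 was higher on all stimulated arrays than on the resting ones in both cell types, with no overlap. Ccne2 rose by 1.01 ± 0.24 (adjusted p = 0.002) in naive cells and by 1.39 ± 0.22 (adjusted p = 6.51e-05) in memory cells. E2f2 (mm7 chromosome 4, 135573084 to 135573143) had the largest change of the 49 genes. E2f2 was at -3.24, -3.13, -2.97 and -3.44 on the naive stimulated arrays, against 0.71, 0.52, 0.53 and 0.16 on the naive resting arrays. On memory arrays, E2f2 was at -1.54, -1.83, -1.63 and -1.84 with stimulation, against 1.38, 1.26, 1.10 and 0.80 without it. No stimulated E2f2 value overlapped the resting values, and all were lower in both cell types. E2f2 fell by 3.66 ± 0.17 (adjusted p = 2.8e-10) in naive cells and by 2.85 ± 0.16 (adjusted p = 1.09e-09) in memory cells. These are 12.7-fold and 7.21-fold lower. E2f1 rose by 0.95 ± 0.19 in naive and 0.79 ± 0.17 in memory cells. Ccne1 fell by 0.72 ± 0.20 in naive cells. Its memory change of -0.37 ± 0.18 did not pass, while a second, dimmer probe fell there by 0.58.

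Chromatin assembly factor 1, with Chaf1a and Chaf1b for its large and middle subunits, places histones on new DNA. The naive Chaf1a signal was -2.39, -1.53, -1.54 and -2.02 with stimulation, against -0.89, -0.90, -0.79 and -0.85 in medium. The memory Chaf1a signal was -0.32, -0.93, -0.78 and -0.88 with stimulation, against -0.01, -0.33, -0.19 and -0.40 in medium. For Chaf1a, all stimulated naive arrays were lower than the resting ones, whereas the arrays of memory cells overlapped. Chaf1a fell by 1.0 ± 0.21 (adjusted p = 0.000605) in naive cells and by 0.49 ± 0.19 (adjusted p = 0.032) in memory cells. Naive cells had Chaf1b at 2.37, 2.57, 2.41 and 2.50 after stimulation, against 1.56, 1.55, 1.44 and 1.91 at rest. Memory cells had Chaf1b at 1.73, 1.58, 1.83 and 1.49 after stimulation, against 1.54, 1.49, 1.25 and 1.86 at rest. For Chaf1b, all stimulated naive arrays were higher than the resting ones, whereas the arrays of memory cells overlapped. Chaf1b rose by 0.81 ± 0.15 (adjusted p = 0.000306) in naive cells, and in memory cells its change of 0.12 ± 0.14 did not pass (adjusted p = 0.442). The memory call ended for Chaf1a without any of 5 arrays (adjusted p up to 0.0882, at -0.42 without memory resting array 1), and with arrays 2 and 3 counted as 1 in all groups (adjusted p = 0.0944).

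Other settings ended some calls. With quantile scaling Cdc45 (adjusted p = 0.406) and Chaf1a (0.0644) no longer passed in memory cells, nor Cdc7 (0.0727) and Rrm1 (0.0876) in naive cells. With a background model fitted on negative control spots the naive calls of Cdc6 (0.0956), Prim1 (0.139), Rfc4 (0.0693) and Tk1 (0.0652) ended, and with the authors' table those of Cdc6 in naive cells (0.0671) and Cdc45 in memory cells (0.323). With the mean of a gene's probes Cdc7 in naive cells (0.495) and Tyms in memory cells (0.0828) did not pass. With all probes kept, dim ones included, the calls of Cdc7 (0.0605) and Prim1 (0.0506) in naive cells and of Cdc45 in memory cells (0.0665) ended. In a fit of the compared groups alone, Cdc7 (0.125), Pold1 (0.0596), Prim1 (0.0724), Rfc3 (0.103), Rfc4 (0.0627) and Rrm1 (0.0874) did not pass in naive cells, nor Rfc5 in memory cells (0.0578).

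**Figure D2:**
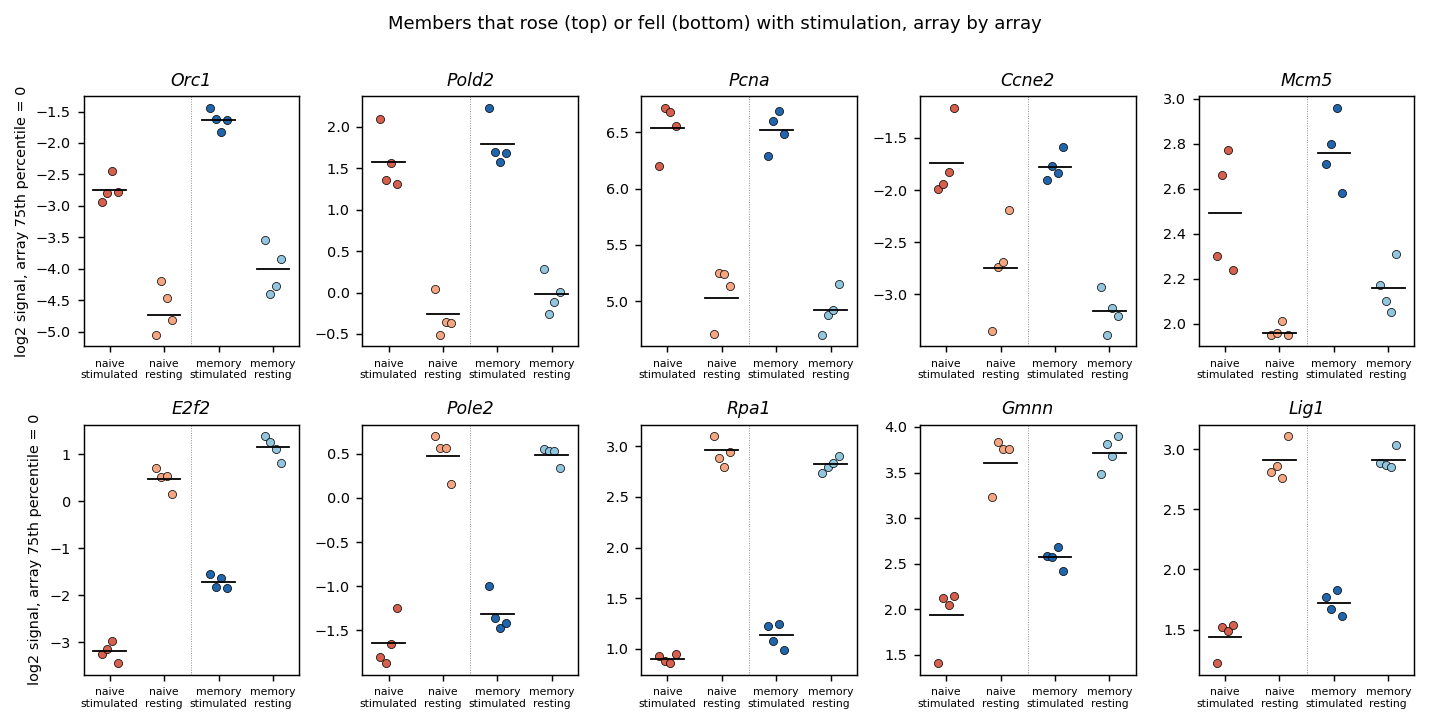
Log2 signal (y axis, array 75th percentile at 0) of 10 members on each of the 16 arrays, by group along the x axis, with a line at the group mean (naive resting arrays 2 and 3 counted as 1 sample). The top row rose and the bottom row fell in both cell types, with no overlap between stimulated and resting arrays in any of the 10 genes. The rise of Mcm5 in memory cells did not pass with the authors' table.

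The sort gate of CD8 and Thy1.2 should remove B cells, monocytes and neutrophils, and their markers were read nonetheless. In bulk RNA fewer cells of a type and less RNA per cell cannot be told apart. Of 13 tested markers of monocytes, macrophages and neutrophils, 1 rose and 9 fell in naive cells and 10 fell in memory cells. Their mean level ran from -3.86 to -3.27 on naive stimulated arrays, against -1.98 to -1.35 on naive resting arrays. On memory arrays it ran from -3.98 to -2.84 with stimulation, against -1.24 to -0.94 without it. Of 10 T cell markers, 1 rose and 7 fell in naive cells and 3 rose and 5 fell in memory cells. Their mean level was 3.88 to 4.31 on naive stimulated arrays, against 4.46 to 5.08 on naive resting arrays, and 4.22 to 4.55 on memory stimulated arrays, against 4.56 to 4.75 on memory resting arrays. Of 5 B cell markers, 1 fell in naive and 4 in memory cells, and their mean level stayed at -2.95 or lower on all arrays. On stimulated arrays Cd22 and, in naive cells, Fcgr3 were not above background. The part of these cells in the changes of the replication genes was not tested.

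The other cell cycle lists were read beside these genes. Of 39 other replication genes, 13 rose and 15 fell in naive cells and 13 rose and 14 fell in memory cells, with medians of -0.08 and -0.13. Top1, the topoisomerase that relieves twisting ahead of the fork, rose by 2.24 ± 0.12 in naive and 2.15 ± 0.11 in memory cells. Pold4, the small subunit of polymerase delta, fell by 2.43 ± 0.18 and 2.32 ± 0.17, and Dck, which phosphorylates salvaged deoxycytidine, fell by 2.38 ± 0.22 and 2.56 ± 0.20. Of 18 other regulators of the G1 to S step, 7 rose and 8 fell in naive and 6 rose and 8 fell in memory cells. Rbl2 and Rbl1, repressors of the retinoblastoma family, fell by 4.78 ± 0.11 and 4.18 ± 0.16 in naive cells and by 4.13 ± 0.10 and 3.26 ± 0.15 in memory cells. The CDK inhibitors Cdkn1b and Cdkn1a parted, with changes of -3.23 ± 0.15 and 3.05 ± 0.41 in naive cells and -3.89 ± 0.14 and 3.49 ± 0.38 in memory cells. By limma 0 of 18 G2 and mitosis genes rose, also at an unadjusted p under 0.05, and 8 fell in naive and 12 in memory cells, with medians of -0.51 and -0.99.

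The next question is how memory phenotype cells differ from naive cells before any stimulus. Memory cells at rest had more transcript of enzymes that make deoxynucleotides (Tk1, Tyms, Rrm2) and of Mcm10, Cdc6, Cdc45, Gins2 and Pola1. None of the 49 was called lower in them by the main fit, which leaves out the replicate number. With that number as a block, Orc2, Orc4, Orc6 and Cdc7 were called lower, and the Orc1 call ended. The helicase genes Mcm2 to Mcm7, Pcna, the RPA genes and most polymerase genes did not pass. Of the 6 helicase genes 0 passed at an unadjusted limma p under 0.05. All memory resting arrays were nonetheless above the naive ones for Mcm2 (0.20 ± 0.15), Mcm4 (0.10 ± 0.11) and Mcm5 (0.20 ± 0.14), and those of Mcm3, Mcm6 and Mcm7 overlapped. Mcm5 gained a call at rest under another setting. Differences from here on are memory minus naive.

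At rest 11 of 49 members were higher in memory cells, 0 were lower and the other 38 did not pass; the median was 0.12. Of all genes tested, 10.3% were higher and 4.88% lower, with a median of -0.02. At an unadjusted limma p under 0.05, 2 members were lower, and without naive resting array 1 the adjusted count was 2 as well. The split of all genes between higher and lower depends on the scaling, at 1901 and 898 here, 1704 and 1178 with quantile scaling, 1333 and 1299 with a background model fitted on negative control spots, and 1718 and 1634 with the authors' table. Memory and naive resting arrays did not overlap for 18 members, among them 10 of the 11 called, and for 22.6% of all genes.

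Same-numbered naive and memory resting arrays deviated together from their group means, at correlations of 0.30 to 0.59 in all 4 pairs. With the number as a block, fitted over all arrays with each array counted, 15 members were higher and 4 lower at rest. Without the block, each array counted, 13 were higher and 0 lower. Over all 18403 genes the block fit called 2963 higher and 2412 lower, and the fit without it 2550 and 1375. With the block, Orc2 (-0.36, adjusted p = 0.0323), Orc4 (-0.22, 0.0405), Orc6 (-0.34, 0.0187) and Cdc7 (-0.35, 0.0382) were the lower members. Ccne1 (0.31, 0.0486), Chaf1a (0.63, 0.0301), Pold2 (0.28, 0.0423), Rfc4 (0.47, 0.0105) and Rrm1 (0.36, 0.0171) were higher as well, and the Orc1 call ended (0.62, 0.0643). In a block fit of the resting arrays alone 15 were higher, and only Orc2 and Orc6 lower, against 3224 and 2584 of all genes.

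Thymidine kinase 1 showed the largest difference. The 4 memory resting arrays lay at -0.59, -1.40, -1.11 and -1.53, against -2.44, -3.61, -3.44 and -3.68 on the naive resting arrays. Every memory array was higher than any naive array, and Tk1 differed by 2.06 ± 0.30 (adjusted p = 0.0003), or 4.16-fold. Tyms and Rrm2 fell outside the rule for values by array and were added after their values were seen. Tyms was at 1.42, 1.19, 1.21 and 1.26 in memory cells, against -0.61, -0.21, -0.17 and 0.05 in naive cells. Rrm2 was at -0.35, -0.61, -0.67 and -0.74 in memory cells, against -2.13, -2.09, -2.07 and -1.59 in naive cells. Both were higher on every memory array. The differences were 1.52 ± 0.16 for Tyms (adjusted p = 1.2e-05) and 1.34 ± 0.20 for Rrm2 (adjusted p = 0.000267). A dim second probe of Tyms did not pass (0.30 ± 0.30), with 2 of 4 naive arrays well above background. Rrm1 did not pass (0.35 ± 0.12, adjusted p = 0.0532).

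Of the firing factors, Mcm10 (chromosome 2, 4908072 to 4908131) differed most. Its memory resting arrays, from -0.02 to 0.71, lay above its naive resting arrays, from -1.99 to -1.23, with a difference of 1.86 ± 0.26 (adjusted p = 0.000159). Cdc45 was higher by 0.93 ± 0.21 (adjusted p = 0.00721). Gins2, also added after its values were seen, was at -0.81, -0.99, -1.11 and -1.03 in memory cells, against -1.75, -1.80, -1.95 and -1.52 in naive cells. Those arrays did not overlap either, and the difference was 0.73 ± 0.14 (adjusted p = 0.00245). Gins1 (0.12 ± 0.20) and the kinase gene Cdc7 (-0.35 ± 0.14) did not pass.

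Cdc6 was higher in memory cells by 1.34 ± 0.28 (adjusted p = 0.00443), while its dimmer probe differed by 0.92 ± 0.37 and did not pass. Pola1 was higher by 0.80 ± 0.18 (adjusted p = 0.00851) and Prim2 by 0.35 ± 0.11 (adjusted p = 0.0352). E2f2 differed by 0.67 ± 0.17 (adjusted p = 0.016), and Orc1 by 0.72 ± 0.22 (adjusted p = 0.0383), whose memory and naive arrays overlapped. The calls of E2f2, Orc1 and Prim2 were the least firm. They ended for E2f2 without memory resting array 1 (0.59, adjusted p = 0.0507) or naive resting array 4 (0.52, adjusted p = 0.0843), for Orc1 without any of 7 arrays (adjusted p up to 0.113, at 0.67 without naive resting array 4) and for Prim2 without any of 7 arrays (adjusted p up to 0.0887, at 0.28 without naive resting array 1). The calls of E2f2 and Prim2 ended as well with arrays 2 and 3 counted as 1 in all groups (adjusted p = 0.0599 and 0.128), and that of Orc1 with quantile scaling (0.52, adjusted p = 0.147) and with the authors' table (0.27, adjusted p = 0.207). The other 8 calls, of Tk1, Mcm10, Tyms, Rrm2, Cdc6, Cdc45, Gins2 and Pola1, passed under every other setting that was run.

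**Figure D3:**
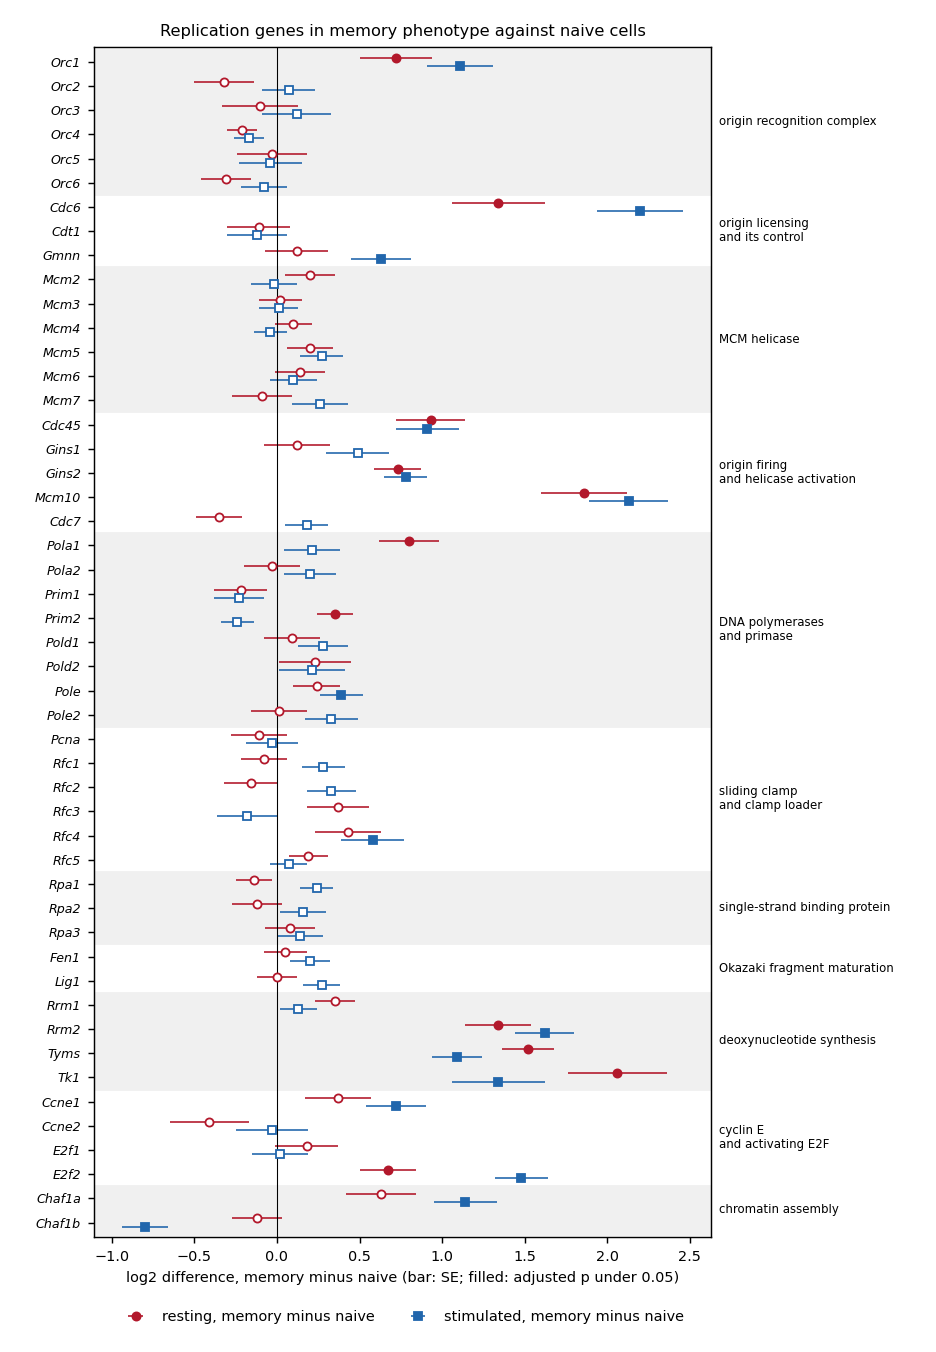
Log2 difference (memory minus naive, x axis) of the 49 genes, ordered by role down the page, at rest (circles) and after stimulation (squares). Bars are the SE from limma and filled symbols have an adjusted p under 0.05. The filled symbols lie to the right of 0 except Chaf1b after stimulation, and Mcm2 to Mcm7 are all open. The fit with the replicate number as a block, not drawn, called 4 members lower at rest. Each gene is drawn by its brightest tested probe, and a second Mcm3 probe, not drawn, passed after stimulation.

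After stimulation, memory cells again had more of the same group of transcripts. Of 49 members, 14 were higher and 1, Chaf1b, was lower than in naive stimulated cells, with a median of 0.21, while 9.39% of all genes were higher and 13.7% lower, with a median of -0.06. In all, 9 members were higher in both states, 81.8% of those at rest and 64.3% of those after stimulation, against 31.9% and 35.1% over all genes. Memory and naive stimulated arrays did not overlap for 18 members and for 27.5% of all genes. Cdc6 had the largest difference, at -2.56, -1.83, -2.91 and -3.06 in memory stimulated cells, against -4.32, -4.94, -4.56 and -5.31 in naive stimulated cells. It was higher on every memory array, by 2.20 ± 0.26 (adjusted p = 3.74e-05). Mcm10 was higher by 2.13 ± 0.24, Rrm2 by 1.62 ± 0.18, E2f2 by 1.48 ± 0.16, Tk1 by 1.34 ± 0.28, Orc1 by 1.11 ± 0.20 and Tyms by 1.09 ± 0.15, with adjusted p of up to 0.00363. Cdc45 (0.91 ± 0.19) and Gins2 (0.78 ± 0.13) also passed. A dim second Tyms probe had the other sign after stimulation and did not pass (-0.37 ± 0.28, adjusted p = 0.386). It was well above background on all 4 arrays of both groups. Pola1 and Prim2, higher at rest, did not pass here (0.21 ± 0.17 and -0.24 ± 0.10). Mcm3 (0.01 ± 0.12) and Rfc2 (0.33 ± 0.15) did not pass by their brightest probe. A second probe of each was higher in memory stimulated cells, by 0.44 ± 0.14 for Mcm3 (adjusted p = 0.044) and 0.48 ± 0.15 for Rfc2 (adjusted p = 0.0358).

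Of the genes called after stimulation and not at rest, Chaf1a was higher by 1.14 ± 0.19 (adjusted p = 0.000699), Ccne1 by 0.72 ± 0.18 (adjusted p = 0.0116) and Gmnn by 0.63 ± 0.18 (adjusted p = 0.0199). The rest were Rfc4 (0.58 ± 0.19, adjusted p = 0.0354) and Pole (0.39 ± 0.13, adjusted p = 0.0435), whose memory and naive arrays overlapped. Chaf1b was at 1.73, 1.58, 1.83 and 1.49 in memory cells, against 2.37, 2.57, 2.41 and 2.50 in naive cells. It was lower on every memory array, by 0.80 ± 0.14 (adjusted p = 0.00105). Calls ended for Gmnn without memory stimulated array 3 (0.59, adjusted p = 0.0509), for Rfc4 without memory stimulated array 1 (0.46, adjusted p = 0.113) or naive stimulated array 2 (0.50, adjusted p = 0.11) or naive stimulated array 3 (0.47, adjusted p = 0.113) or memory stimulated array 3 (0.59, adjusted p = 0.0643) and for Pole without any of 10 arrays (adjusted p up to 0.115, at 0.35 without memory stimulated array 1). Those of Gmnn, Pole and Rfc4 ended with arrays 2 and 3 counted as 1 in all groups (adjusted p = 0.0813, 0.176 and 0.168), and that of Ccne1 with the mean of its probes (0.47, adjusted p = 0.0616). A call in 1 state and not in the other does not show that the states differ.

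**Figure D4:**
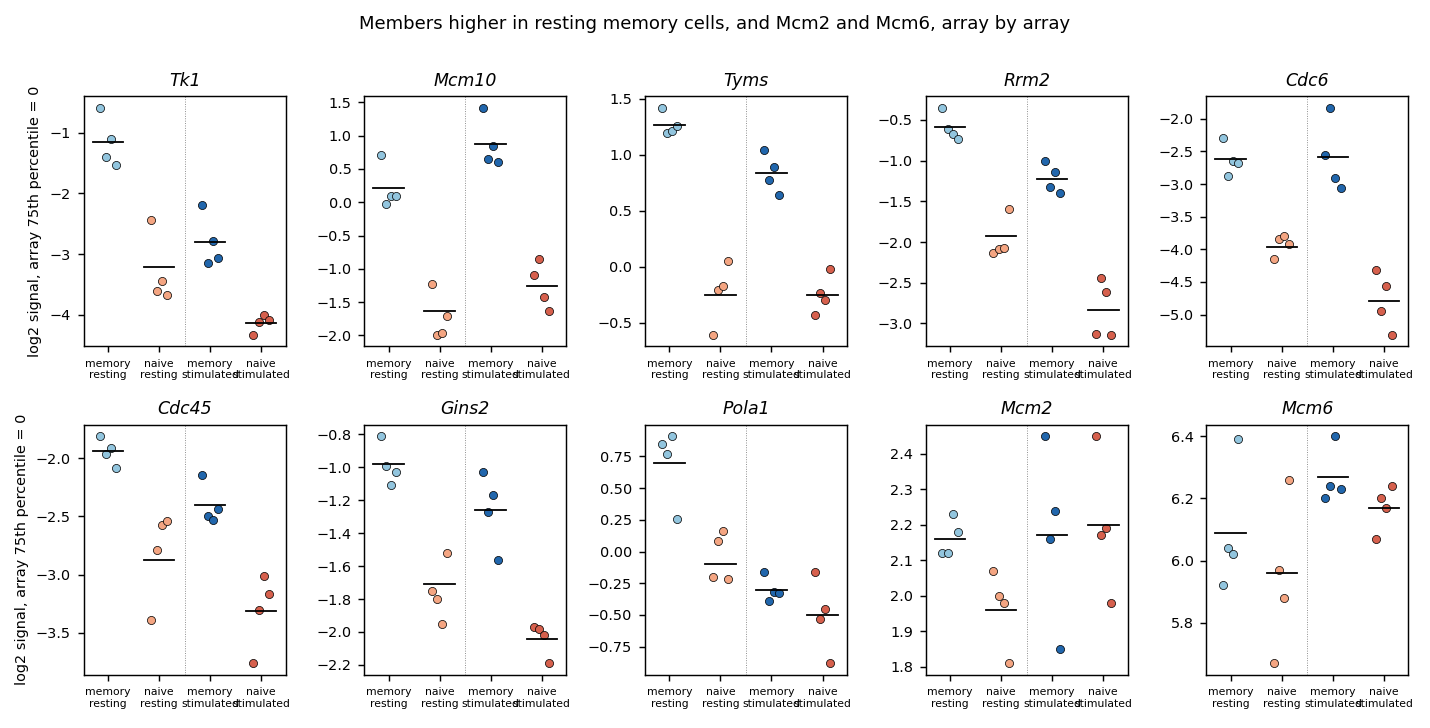
Log2 signal (y axis, array 75th percentile at 0) of 10 members on each of the 16 arrays, by group along the x axis, with a line at the group mean (naive resting arrays 2 and 3 counted as 1 sample). The 8 genes from Tk1 to Pola1 were higher on every memory resting array than on any naive resting array, while the resting arrays of Mcm6 overlapped. Those of Mcm2 did not overlap, and its difference of 0.20 ± 0.15 did not pass (adjusted p = 0.392).

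Whether the cell types answered the stimulus to a different degree was tested as the memory change minus the naive change. Of 49 members, 1 had a higher and 2 had a lower change in memory cells, with a median of 0.15, while 4.52% of all genes were higher and 12.1% lower. For all genes this split was 832 and 2233 here, 1068 and 1632 with quantile scaling, 999 and 1224 with the control spot background model and 1410 and 1674 with the authors' table. E2f2 fell less in memory cells, by 0.81 ± 0.23 (adjusted p = 0.0277). Prim2 fell more in memory cells (-0.59 ± 0.14, adjusted p = 0.012), and Chaf1b, which rose in naive cells, had a smaller change in memory cells (-0.68 ± 0.21, adjusted p = 0.0371). None of the 3 passed when arrays 2 and 3 were counted as 1 in all groups (adjusted p = 0.072 for E2f2, 0.0737 for Prim2 and 0.0746 for Chaf1b). They also ended for E2f2 without naive resting array 1 (0.69, adjusted p = 0.0612) or memory stimulated array 1 (0.76, adjusted p = 0.0538) or naive stimulated array 4 (0.73, adjusted p = 0.0559) and for Chaf1b without any of 9 arrays (adjusted p up to 0.0757, at -0.65 without naive stimulated array 2). With the control spot background model (adjusted p = 0.19 and 0.085) and the authors' table (0.0733 and 0.0611), E2f2 and Chaf1b did not pass, and with the mean of its probes Prim2 did not (-0.93, adjusted p = 0.1). The Cdc6 difference of 0.85 ± 0.38 (adjusted p = 0.146), the largest of the list, did not pass.

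Marker lists named for other lymphoid and myeloid cells also differed between the sorted fractions. Whether the sorted CD8 T cells themselves express these genes was not tested, so a higher list does not show that other cells were present. Of 9 tested NK and NKT cell markers, 7 were higher in memory cells at rest, with a mean level of 0.67 to 0.97 on memory resting arrays, against -1.76 to -1.64 on naive resting arrays. Ncr1 and Klrk1 were not above background on any naive array. Of 8 dendritic cell and MHC class II markers 5 were higher, with mean levels of -1.44 to -0.77 on memory resting arrays, against -2.68 to -1.87 on naive resting arrays. Of 13 monocyte, macrophage and neutrophil markers 4 were higher, of 4 CD4 and regulatory T cell markers 2, of 5 B cell markers 1 and of 3 erythrocyte and platelet markers 1. The mean level of the CD4 markers was -3.63 to -3.45 in memory cells, against -5.24 to -4.54 in naive cells, with Cd40lg not above background on the resting arrays of either and Zbtb7b not on naive stimulated arrays. That of B cell markers was -3.18 to -2.95 in memory cells, against -3.97 to -3.07 in naive cells, and that of erythrocyte and platelet markers -3.94 to -2.93 in memory cells, against -4.44 to -3.46 in naive cells. Of 10 T cell markers 1 was lower, and of 4 immature thymocyte markers 2 were lower, at a mean level of -1.50 to -1.35 in memory cells, against -0.31 to 0.05 in naive cells. After stimulation 7 of 9 NK markers were higher and 1 lower, with mean levels of 0.03 to 0.49 in memory cells, against -1.71 to -1.34 in naive cells. Memory resting arrays also had the most spots well above background, 63.9% to 66.5%, against 60.6% to 64.3% on naive resting arrays. The part of these in the differences of the replication genes was not tested.

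The higher transcripts in memory cells were set beside the same lists as before. Of 18 G2 and mitosis genes, 15 were higher in memory cells at rest and 13 after stimulation, with medians of 1.65 and 1.19. Aurkb, a kinase of chromosome segregation, was higher by 2.50 ± 0.32 at rest and 2.43 ± 0.30 after stimulation, with 1 of 4 naive stimulated arrays well above background, and Mki67, the gene of the proliferation antigen Ki-67, by 2.23 ± 0.28 and 2.32 ± 0.26. Of 18 other G1 to S regulators, 4 were higher and 1 lower at rest and 6 and 2 after stimulation. The repressor E2f8, well above background on 0 of 4 naive resting arrays, was at least 3.74-fold higher in memory cells (mean -3.78, against -6.46, adjusted p = 0.000162). E2f7, another repressor, was higher by 2.32 ± 0.19 at rest, with 2 of 4 naive arrays well above background, and Ccna2, the cyclin of S and G2 phase, by 2.51 ± 0.36. Of 39 other replication genes, 5 were higher and 2 lower at rest and 9 and 1 after stimulation. Clspn, which relays the checkpoint signal from stalled forks, was higher by 1.55 ± 0.37 at rest, with 2 of 4 naive arrays well above background, and Ticrr, which brings Cdc45 to origins, by 1.41 ± 0.21. The medians were 0.02 and 0.16 for the other replication genes, against 0.12 and 0.21 for the 49.

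**Figure D5:**
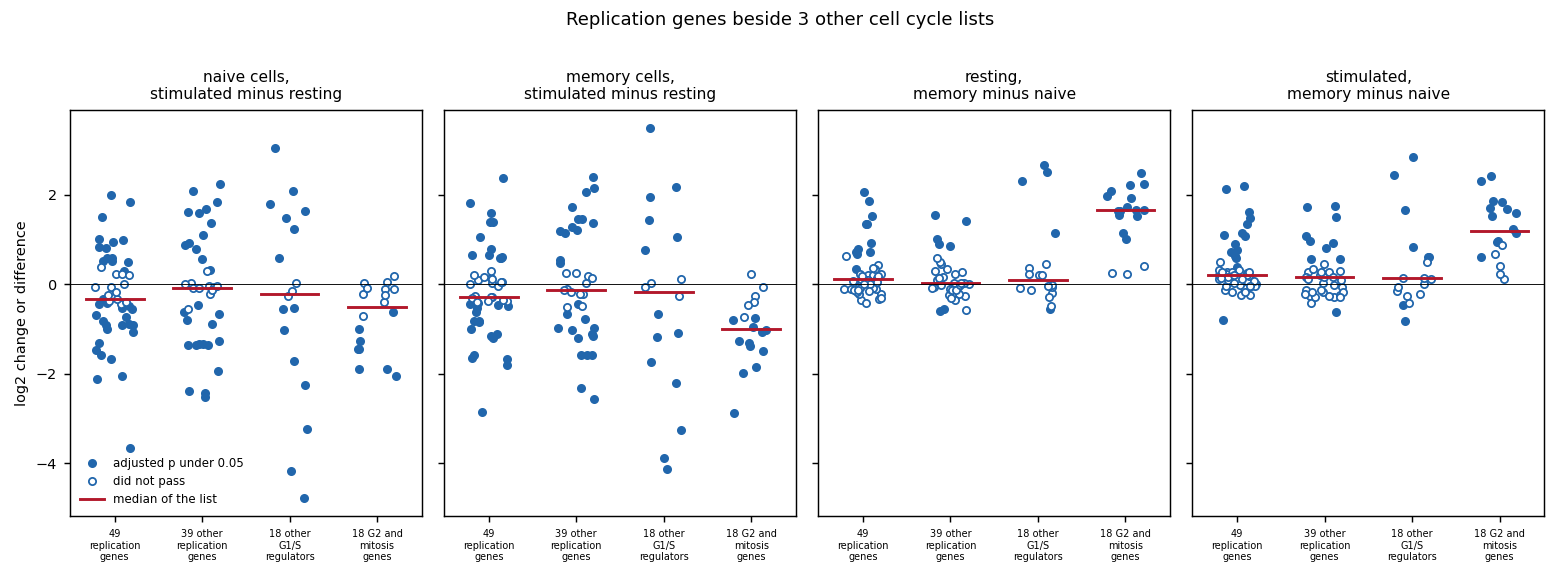
Log2 change or difference (y axis) of each gene in 4 lists (x axis), in 4 panels for the 2 responses and the 2 memory minus naive differences. Filled points have an adjusted p under 0.05 and red lines are list medians. The G2 and mitosis genes have medians of 1.65 and 1.19 between memory and naive cells, against 0.12 and 0.21 for the 49 replication genes.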

How the data were processed

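RNA of each of 16 samples was labelled with Cy3 and hybridised to an array of its own that covers the mouse genome. Per the file headers, signals were extracted by version 9.5.3.1 of Agilent Feature Extraction with background subtraction and spatial detrending, so the deposited processed signal is a linear intensity that the authors did not normalize between arrays. Probe positions in the files are on build mm7. A deposited table of the authors' own processed intensities has a median of 149.0 on every array and correlates with the log2 processed signal at 0.9754 to 0.9844. It is linear and looks quantile normalized, how it was made is not given here, and it served as an alternative.

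The log2 processed signal minus each array's 75th percentile (504.3 to 678.0 intensity units) was analysed without control and outlier spots (59 to 116 of 43379 per array). Probes well above background on 3 or more arrays of a group were tested, 27349 in all, and the brightest tested probe stood for each of 18403 genes. Of 41174 probes, 22951 were named through their accession, 6659 by symbol, 3109 by a synonym and 8455 kept the name in the file. One limma model with a mean per group (limma 3.58.1 in R 4.3.3, with Python 3.11.15, numpy 2.4.6 and pandas 2.3.3) gave 5 contrasts, two-sided, with Benjamini-Hochberg adjustment over all genes and a threshold of 0.05. The planned fit counted each array. The naive resting arrays 2 and 3 were averaged after the data showed how close they lie, and the fit that counts each array is an alternative. Same-numbered arrays of the naive and memory resting groups deviated together in all 4 pairs (0.30 to 0.59). The numbers, taken from the sample titles, therefore pair these groups. The main fit leaves this pairing out, and the block is given beside the resting difference. In the other comparisons 2 or 3 of 4 pairs were over 0.1, and the numbers were not taken as pairing them. On simulated data for the naive response with 18403 genes, 56% of genes changed by 1 on the log2 scale were called and 10% of those changed by 0.5. Only 100 genes were changed at each size there, whereas 34.6% of all genes rose and 31.0% fell in the data. The adjusted threshold is stricter where so few genes change, so these shares do not carry over to the data.

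Members and lists were chosen with earlier results of these data known. Genes are given array by array where they had the largest or smallest change of their role in either response or at rest, and at most 4 genes per other list and contrast are named. Alternatives were quantile scaling, the authors' table, other background and dim probe filters, the mean of a gene's probes, 2 groups alone, a replicate block, each array left out, and, chosen after seeing the data, a background model on negative control spots, other counts of arrays 2 and 3 the block on resting arrays alone and the first array of all groups left out. The number of arrays limits the precision. Positions are those of the probes, and their exon or UTR annotation was not used here.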

Additional observations from a re-analysis of the deposited data

Results flagged for a closer look

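In 10 of 147 groups of 4 arrays examined, 1 array lay apart from the other 3 by more of the range than Dixon's critical value allows. Chance alone flags about 1 in 20 groups, and 6.8% were flagged here. The naive resting groups, with 3 samples, were not examined. In 7 of the 10 the array was the first of its group. These were Orc5 on memory stimulated arrays (-1.86, nearest -2.44), Mcm10 on memory resting arrays (0.71, nearest 0.10) and Pold2 on memory stimulated arrays (2.23, nearest 1.69). On naive stimulated arrays they were Orc6 (3.34, nearest 3.78), Gmnn (1.41, nearest 2.05), Pold1 (2.64, nearest 2.04) and Lig1 (1.22, nearest 1.49). The others were Cdc7 on naive stimulated array 2 (-0.27, nearest -0.12) and Pola2 (0.18, nearest 0.43) and Pole2 (0.34, nearest 0.53) on memory resting array 4.

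In 3 genes the response to stimulation differed between memory and naive cells by the test of the difference itself. The memory change minus the naive change was 0.81 for E2f2, -0.59 for Prim2 and -0.68 for Chaf1b. All 3 ended with arrays 2 and 3 counted as 1 in all groups.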

How the results depend on the processing

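Of the calls on single members, 25 of 36 in the naive response, 23 of 31 in the memory response, 8 of 11 at rest, 11 of 15 after stimulation and 0 of 3 in the interaction held under every setting run. Members not called here gained a call under some setting as well, 8 in the naive and 12 in the memory response, with Cdt1 among them in both. Such gains numbered 12 at rest, 4 after stimulation and 5 in the interaction. Member counts kept within 1.5 times in both responses and for genes higher in memory cells: over each array left out in turn, 12 to 14 higher and 18 to 23 lower in naive cells, 11 to 12 and 14 to 23 in memory cells, 9 to 12 higher at rest and 11 to 15 after stimulation. Small counts moved. Members lower at rest were 0 to 2 over arrays left out, 1 with the authors' table, 4 with the replicate block, 2 with the block on resting arrays alone and 3 without the first array of all groups. Members lower after stimulation were 2 with the replicate block and 1 with each array left out. Members with a higher change in memory cells were 0 to 1 over arrays left out, 2 with the control spot background model, with the authors' table and with each array counted, 3 with the replicate block and 0 with arrays 2 and 3 as 1 in all groups. Those with a lower change were 1 to 2 over arrays left out, 1 with the control spot model, with the authors' table, with the mean of probes and with naive arrays 2 and 3 as 1 in each group, and 0 with arrays 2 and 3 as 1 in all groups. Signs turned for Mcm3 in memory cells (-0.02 with quantile scaling, -0.08 with the authors' table), Mcm4 in memory cells (-0.52 and -0.62) and naive cells (-0.28 with the authors' table), Mcm6 in naive cells (-0.30 and -0.38) and memory cells (-0.43 and -0.51), Rpa2 in memory cells (-0.28 with the authors' table) and, with the mean of probes, Prim2 in naive cells (0.34) and Cdc6 in memory cells (-0.86). The cause was not tested. Over all genes, 898 were lower at rest, with 444 to 2584 over settings, and 1901 higher, with 1287 to 3224. After stimulation 1728 were higher, with 972 to 2400, and 2528 lower, with 1461 to 3307. In the interaction 832 were higher, with 303 to 1698, and 2233 lower, with 1224 to 2984. The control spot background model moved the median of all genes in the memory response to -0.03 and the authors' table to -0.10, against -0.21. Counting each array moved members lower to 25 in naive and 20 in memory cells, and the replicate block, which also counts each array, to 26 and 24. Of the arrays, 12 of 16 correlated best with their own number, a hint from the data. A slide block was not run, since each slide held 1 group. The planned background correction with an offset of 50 gave no value, since its fit failed on 3 arrays. Other counts of arrays, the control spot model, the block on resting arrays alone and the first arrays left out were chosen after seeing the data. Probes of Cdc6, Orc3 and Prim2 are dim, which limits them.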

Other observations

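A few genes of the other cell cycle lists answered stimulation to a different degree in memory and naive cells, by limma with adjustment over all genes. E2f4, an E2F factor that represses in resting cells, was at 0.25, 0.25, 0.34 and 0.18 in memory stimulated cells, against -0.02, 0.11, 0.12 and 0.28 in memory resting cells. In naive cells E2f4 was at 1.24, 1.16, 1.04 and 0.85 with stimulation, against -0.96, -0.99, -0.95 and -1.12 at rest. It rose by 2.09 ± 0.12 in naive cells, and its memory change of 0.13 ± 0.11 did not pass. The difference of the changes was -1.96 ± 0.16 (adjusted p = 2.14e-06). Of the 18 other G1 to S regulators, 3 had a higher and 2 a lower change in memory cells, and of the 39 other replication genes, 2 and 1. Rrm2b, the small reductase subunit used outside S phase, fell by 1.58 ± 0.17 in memory cells and by 0.47 ± 0.18 in naive cells, a difference of -1.11 ± 0.25 (adjusted p = 0.00736). The histone chaperone gene Asf1a rose by 1.46 ± 0.12 in memory cells and by 0.79 ± 0.13 in naive cells, a difference of 0.67 ± 0.17 (adjusted p = 0.0168). Dscc1, of an alternative clamp loader, fell less in memory cells (0.93 ± 0.29, adjusted p = 0.0394).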
